A study of Mus musculus with 12 samples.

Results

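Transcripts of 10 genes that sense or relieve protein misfolding in the endoplasmic reticulum (ER) were compared: 3 stress sensors (*Ern1*, *Atf6* and *Eif2ak3*), the transcription factor *Xbp1* and 6 chaperones or folding helpers (*Hspa5*, *Hsp90b1*, *Calr*, *Canx*, *Pdia4* and *Dnajb9*). They were a fixed list of symbols, chosen with earlier results of these data known. All 10 were among the 10697 genes of the deposited table. Primary mouse adult fibroblasts (MAFs), grown out of biopsies of wild-type C57BL6/j mice, were exposed for 24 h to thymol, a phenolic monoterpene of thyme and oregano, dissolved in DMSO. The labels give the dose as 100 without a unit, which was read as µM, the unit of the study's methods for thymol on cultured cells. Control cultures received the same volume of DMSO alone, so the groups shared the genotype, the culture and the solvent. Each group held 6 libraries of QuantSeq, which sequences the 3′ ends of polyadenylated transcripts. Whether the 6 libraries of a group came from separate cultures or animals was not stated in the sources used here, so the p-values measure the spread between libraries only.

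The ER folds secreted and membrane proteins, a heavy duty in fibroblasts, which export collagen. When unfolded proteins accumulate there, the sensors start the unfolded protein response. IRE1, encoded by *Ern1*, is a kinase and nuclease that splices the mRNA of *Xbp1* into a form that encodes an active transcription factor. ATF6 is carried to the Golgi and cut there, which frees a transcription factor, and PERK, encoded by *Eif2ak3*, phosphorylates eIF2α and slows translation. The transcription factors ATF6 and XBP1 act on chaperone genes through a promoter motif known as the ER stress response element (ERSE). The chaperone BiP, encoded by *Hspa5*, holds the sensors inactive while it is not needed for folding. Sensor activity therefore depends on splicing, cleavage and phosphorylation, none of which the abundance of a 3′ tag records.

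The ERSE sequences are shown first, and they do not rank the members by how directly they are linked to the sensors. Promoters of 9 of the 10 members were found in the RefSeq promoter table (GRCm38.p6, 250 bases before to 50 after a start), and that of *Atf6* was not matched. The motif searched, on both strands, was CCAAT, then 9 bases of any kind, then CCACG. It was present in the promoters of 4 of the 9 members, all chaperones, and in 0.119% of all 32851 promoters. In the following sequences the motif is in capitals, and where it lies on the opposite strand it starts with CGTGG and ends with ATTGG. Each is written 5′ to 3′ on the strand of its gene.
*Hspa5*, chr2:34771985-34772083, plus strand: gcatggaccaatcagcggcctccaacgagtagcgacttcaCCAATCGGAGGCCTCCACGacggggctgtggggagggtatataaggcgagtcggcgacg
*Hsp90b1*, chr10:86705493-86705694, minus strand: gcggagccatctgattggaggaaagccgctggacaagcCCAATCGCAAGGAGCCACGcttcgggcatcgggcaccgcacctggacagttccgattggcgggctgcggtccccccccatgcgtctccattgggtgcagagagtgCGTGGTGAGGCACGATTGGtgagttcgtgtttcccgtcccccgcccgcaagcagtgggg
*Calr*, chr8:84847035-84847133, minus strand: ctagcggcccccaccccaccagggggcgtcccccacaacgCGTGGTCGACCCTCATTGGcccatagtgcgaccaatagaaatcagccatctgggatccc
*Canx*, chr11:50325760-50325858, minus strand: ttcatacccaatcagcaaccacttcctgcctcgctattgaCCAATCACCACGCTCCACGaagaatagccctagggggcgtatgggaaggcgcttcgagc

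*Hsp90b1* held 2 full motifs, which began 212 and 107 bases before the RefSeq start. The single motifs of *Hspa5*, *Calr* and *Canx* began 65, 162 and 145 bases before it. By the annotation GENCODE vM21, *Hspa5* starts at 34771970, so there its motif lies inside the gene and not before it. The promoters of *Pdia4*, *Dnajb9*, *Xbp1*, *Ern1* and *Eif2ak3* did not hold these letters in this window, and 0 of the 9 member promoters held the shorter motifs ERSE-II (ATTGG, any base, CCACG) or TGACGTGG (the unfolded protein response element), searched likewise, which were present in 0.0365% and 0.676% of all promoters. A match of letters is a description and not a measured binding site.

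In GRCm38, by the annotation GENCODE vM21, the sensor genes lay at 106394650 to 106487852 of chromosome 11 (minus strand) for *Ern1*, at 170704674 to 170867771 of chromosome 1 (minus strand) for *Atf6* and at 70844515 to 70905245 of chromosome 6 (plus strand) for *Eif2ak3*. *Xbp1* lay at 5520659 to 5525893 of chromosome 11 (plus strand). Of the chaperone genes, *Hspa5* lay at 34771970 to 34777547 of chromosome 2 (plus strand), *Calr* at 84841850 to 84846934 of chromosome 8 (minus strand) and *Canx* at 50293961 to 50325673 of chromosome 11 (minus strand). *Pdia4* lay at 47796141 to 47813430 of chromosome 6 (minus strand) and *Dnajb9* at 44205559 to 44210326 of chromosome 12 (minus strand). The position of *Hsp90b1* is given with its overlap. The library kit places tags at the 3′ end of a transcript, mostly in the last exon, so none of the values distinguishes isoforms with a common end.

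The libraries held between 5435985 and 9049796 recovered reads. The labelled cell type was checked with markers. The table held 11 of 12 fibroblast markers, whose median level was 8.35 log2 CPM (tags relative to the effective size of each library, as the authors scaled them), and 12 of 12 macrophage markers, whose median was 8.68, so transcripts typical of macrophages were abundant in cultures labelled as fibroblasts. Epithelial markers were absent from the table (0 of 4), and 1 of 5 endothelial and 1 of 4 muscle markers were in it, at 1.86 and 2.80 log2 CPM. The summed level of the macrophage markers ran from 17365 to 19246 CPM with DMSO and from 17471 to 20988 with thymol, with overlap. That of the fibroblast markers ran from 13415 to 14409 CPM with DMSO and from 12514 to 13161 with thymol, without overlap. *Hsp90b1* was also lower with thymol, which is a shared contrast of the groups and not a relation across libraries. In limma 2 of the 12 macrophage markers and 2 of the 11 fibroblast markers passed, all towards lower values, against 2.22% of all genes (1.57% lower). The part of either cell type in the members' differences was not tested.

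Levels of the members were read on the same log2 CPM scale. Because each transcript gives about 1 tag whatever its length, these values were compared between genes without division by length. How evenly the 3′ ends of different genes were captured was not examined, so the levels compare tags. The 10 genes covered a wide range, with 5 of the 6 chaperones at the top, *Xbp1* and *Atf6* next, and the chaperone *Dnajb9* and the other 2 sensors at the bottom. *Hspa5* averaged 10.55 log2 CPM over the 12 libraries, which is 1504 CPM and above 99.5% of the genes in the table. *Calr*, which encodes the calcium-binding lectin calreticulin, followed at 10.38, and *Hsp90b1*, which encodes the HSP90 of the ER, at 10.21. The order of these 3 was the same in 12 of 12 libraries, although the ranges of neighbouring genes overlapped.

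*Canx*, which encodes the membrane-bound lectin calnexin, lay lower, at 9.14, and in no library did it reach the level of *Hsp90b1*. *Pdia4*, a protein disulfide isomerase, averaged 6.42, *Xbp1* 6.32 and *Atf6* 6.03. *Pdia4* and *Xbp1* were not separable in level: *Pdia4* was higher in 8 of 12 libraries, with a mean difference of 0.099 ± 0.29 (SD, n = 12). *Xbp1* was above *Atf6* in 10 of 12 libraries. *Dnajb9*, a co-chaperone of BiP that also restrains IRE1, averaged 5.00 log2 CPM, close to the middle of the table, where it exceeded 49.5% of the genes. *Ern1* averaged 4.63 and *Eif2ak3*, the lowest of the 10, averaged 4.01, which is 16.1 CPM. *Ern1* was above *Eif2ak3* in 11 of 12 libraries. The 6 chaperones together took between 0.431% and 0.509% of the reads of a library, and the 3 sensors between 0.00893% and 0.0132%.

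**Figure D1:**
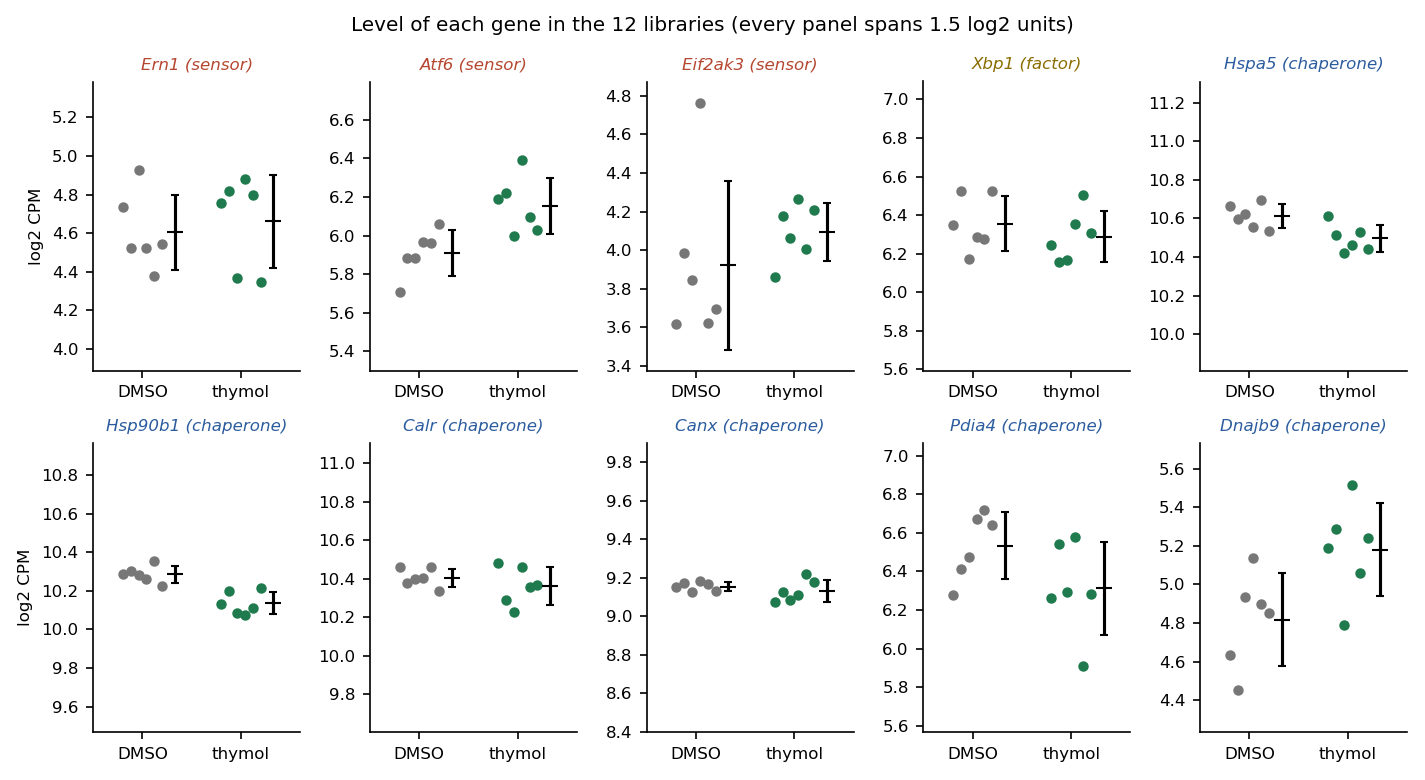
Level of each of the 10 genes (log2 CPM, vertical axes that all span 1.5 units) in 6 DMSO libraries (grey) and 6 thymol libraries (green), with points for libraries and a bar for the mean ± SD. *Hsp90b1* is the only panel in which the groups do not overlap, and the highest DMSO point of *Eif2ak3* (4.76) stands apart from its group.

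The comparison of thymol with DMSO asked whether the sensors and the chaperones differed in transcript level. In limma, fitted to all genes, 0 of the 10 members passed an adjusted p-value of 0.05, against 2.22% of all genes (0.654% higher and 1.57% lower). At an unadjusted p-value under 0.05 there were 5 members, against 11.8% of all genes. They were *Atf6* and *Dnajb9* towards higher values, against 5.35% of all genes, and *Hspa5*, *Hsp90b1* and *Pdia4* towards lower values, against 6.44%. For *Hspa5* and *Pdia4* this depended on limma's trend of the variance with level. Without that trend their unadjusted limma p-values were 0.0744 and 0.0845. In voom, a variant of limma run on whole reads recovered from the deposited values, 1 member (*Hsp90b1*) passed the adjusted threshold, against 2.22% of all genes, and 5 were under 0.05 before adjustment, against 11.9% of all genes. The differences were small beside the range of levels. The largest belonged to *Dnajb9* and was 0.36 on the log2 scale.

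Among the sensors, *Atf6* was higher with thymol before adjustment only. Its lowest, median and highest values were 5.71, 5.92 and 6.06 log2 CPM with DMSO and 6.00, 6.15 and 6.39 with thymol. All 6 thymol libraries lay above the DMSO median and 4 of them above every DMSO library, so the groups overlapped in part. The difference was 0.24 ± 0.088 (SE), with a 95% interval from 0.068 to 0.42 and a limma adjusted p of 0.168. The interval corresponds to a change of between 4.81% and 33.8%. The libraries with odd and with even replicate numbers were also fitted apart, as a split by library number that the groups do not explain, and the estimates were 0.25 and 0.24.

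*Eif2ak3* was measured with the least precision. With DMSO its values ran from 3.62 over a median of 3.77 to 4.76 log2 CPM, and with thymol from 3.86 over 4.12 to 4.27. The thymol values lay within the range of the DMSO values, which DMSO replicate 4 extended at its upper end: that library held 179 reads of *Eif2ak3*, where the other DMSO libraries held between 75 and 113. The difference was 0.18 ± 0.18 (SE, 95% interval -0.18 to 0.53, limma adjusted p = 0.793). Without DMSO replicate 4 it was 0.34, with an adjusted p of 0.439.

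*Ern1* had values from 4.38 to 4.93 log2 CPM with DMSO (median 4.53) and from 4.35 to 4.88 with thymol (median 4.78). The groups covered nearly the same range, with 4 thymol libraries from 4.76 to 4.88 and the other 2 from 4.35 to 4.37. The difference was 0.056 ± 0.14 (SE, limma adjusted p = 0.944), and its 95% interval, -0.22 to 0.33, includes changes in either direction. In the odd-numbered libraries alone its sign was the opposite (-0.040).

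*Xbp1*, whose transcript IRE1 splices, had values from 6.17 to 6.53 log2 CPM with DMSO (median 6.32) and from 6.16 to 6.51 with thymol (median 6.27). The groups overlapped over almost their whole range. The difference was -0.067 ± 0.083 (SE, 95% interval -0.23 to 0.099, limma adjusted p = 0.844), and it was 0.038 in the odd-numbered libraries alone. These values concern the sum of the spliced and unspliced forms, which share their 3′ end.

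*Hsp90b1* was the only member whose groups were separate, which was so for 1.68% of all genes. With DMSO its lowest, median and highest values were 10.22, 10.28 and 10.36 log2 CPM, and with thymol they were 10.08, 10.12 and 10.21. The gap between the groups was narrow, from 10.21 in the highest thymol library to 10.22 in the lowest DMSO library. The difference was -0.15 ± 0.045 (SE, 95% interval -0.24 to -0.060), a change of -9.88%. It rested on means of 8820 reads (DMSO) and 7322 reads (thymol).

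The limma adjusted p of *Hsp90b1* was 0.0603, just outside the threshold. The call depended on the processing. It passed in 7 of the other 11 settings, with adjusted p-values from 0.00735 after quantile normalization to 0.0450 with a term for odd against even library numbers, and it passed in 0 of the 12 fits that left out 1 library, where the adjusted p ran from 0.0580 to 0.165. With the replicate number as a block the adjusted p was 0.0259, and in voom it was 0.0203. In the odd-numbered libraries alone the difference was -0.20 (adjusted p = 0.319) and in the even-numbered ones -0.100 (adjusted p = 0.551). The 3′ part of *Hsp90b1* (chromosome 10, 86690209 to 86705509, minus strand, GRCm38) is overlapped on the opposite strand by the pseudogene 1810014B01Rik in the annotation GENCODE vM21. Whether the counting used strand was not given in the sources used here, so it is not known whether reads of the 2 were kept apart. On the strand of *Hsp90b1*, the processed transcript Gm15344 (86692119 to 86693095) and the microRNA gene Gm25745 also overlap it. None of these overlapping genes was in the deposited table. These overlaps were read from gene spans, and shared reads were not examined.

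*Hspa5* had values of 10.54, 10.61 and 10.70 log2 CPM (lowest, median and highest) with DMSO and of 10.42, 10.49 and 10.61 with thymol. In 5 of 6 thymol libraries it was below every DMSO library, and thymol replicate 1 (10.61) was the exception. The difference was -0.12 ± 0.045 (SE, 95% interval -0.21 to -0.024, limma adjusted p = 0.238). The upper end of that interval is a change of -1.65%. It was -0.14 in the odd-numbered and -0.092 in the even-numbered libraries alone, and without thymol replicate 1 it was -0.14, with an adjusted p of 0.0796.

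*Calr* and *Canx*, which encode the lectins that bind newly glycosylated proteins, were the members measured with narrow intervals around 0. *Calr* ran from 10.34 over 10.40 to 10.46 log2 CPM with DMSO and from 10.23 over 10.36 to 10.48 with thymol, a difference of -0.042 (95% interval -0.14 to 0.052, limma adjusted p = 0.824). *Canx* ran from 9.12 over 9.16 to 9.18 with DMSO and from 9.07 over 9.12 to 9.22 with thymol, a difference of -0.021 (95% interval -0.12 to 0.075, limma adjusted p = 0.936). For both genes the thymol values extended past the DMSO values at both ends. The intervals leave room for changes between -8.97% and 3.67% for *Calr* and between -7.81% and 5.32% for *Canx*.

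*Pdia4* had values from 6.28 over 6.56 to 6.72 log2 CPM with DMSO and from 5.91 over 6.29 to 6.58 with thymol. In 5 of 6 thymol libraries it was below the DMSO median, and 2 were below every DMSO library. The difference was -0.22 ± 0.091 (SE, 95% interval -0.40 to -0.038, limma adjusted p = 0.272). Its size depended on thymol replicate 5, the lowest library and the most deeply sequenced: without it the difference was -0.14, with an adjusted p of 0.562. It was -0.34 in the odd-numbered libraries alone and -0.10 in the even-numbered ones.

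*Dnajb9* differed in sign from the other 5 chaperones. It ran from 4.45 over 4.87 to 5.14 log2 CPM with DMSO and from 4.79 over 5.21 to 5.51 with thymol. In 5 of 6 thymol libraries it exceeded the DMSO median and in 4 every DMSO library, with thymol replicate 3 (4.79) as the low value. The difference was 0.36 ± 0.13 (SE, 95% interval 0.11 to 0.62, limma adjusted p = 0.146), on means of 199 reads (DMSO) and 235 reads (thymol). It was 0.19 in the odd-numbered and 0.54 in the even-numbered libraries alone, and that gap was not tested. With 10 added to the CPM before the logarithm it was 0.28.

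**Figure D2:**
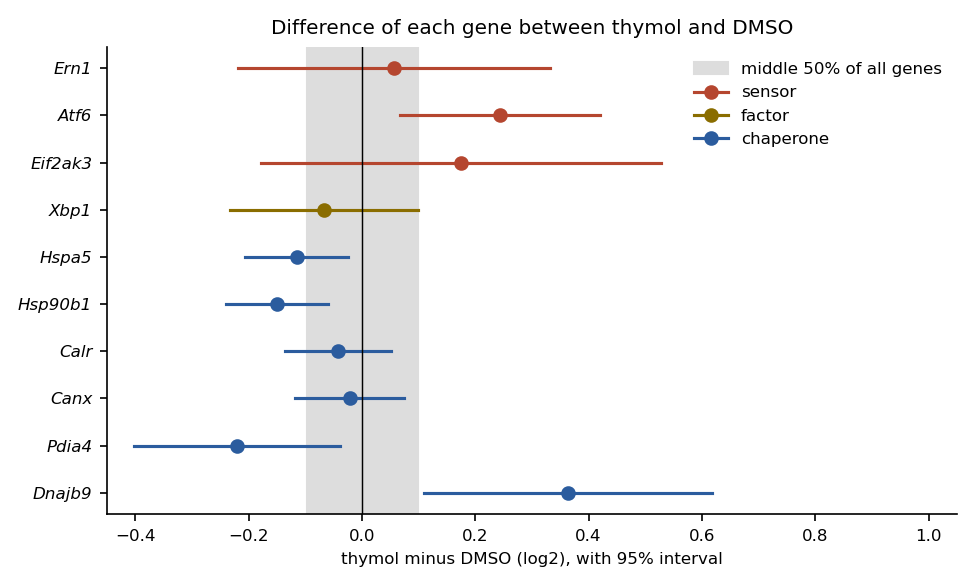
Thymol minus DMSO (log2, horizontal axis) for each gene, as the limma estimate (point) with its 95% interval (line), coloured by role; the grey band holds the middle 50% of all genes, from -0.097 to 0.099. All 3 sensors lie right of 0 and 5 of the 6 chaperones left of it, and the intervals of *Atf6*, *Hspa5*, *Hsp90b1*, *Pdia4* and *Dnajb9* do not reach 0 before adjustment.

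Set beside each other, 3 of 3 sensors had positive differences and 5 of 6 chaperones negative ones. The median difference was 0.18 for the sensors and -0.078 for the chaperones, and that of all genes was 0.0026. The 6 chaperones together took 0.470% to 0.509% of the recovered reads with DMSO (median 0.484%) and 0.431% to 0.469% with thymol (median 0.460%), so that the groups did not overlap. This sum is dominated by *Hspa5*, *Calr* and *Hsp90b1*. With equal weight per gene, the mean level of the 6 chaperones overlapped between the groups. It ran from 8.55 to 8.72 log2 CPM with DMSO (median 8.63) and from 8.48 to 8.70 with thymol (median 8.62). The 3 sensors took 0.00893% to 0.0113% of the reads with DMSO and 0.0101% to 0.0132% with thymol, with overlap. For every sensor read there were between 42.9 and 54.8 chaperone reads with DMSO and between 34.8 and 44.5 with thymol. These are descriptions of members chosen with results of the data known, and no test was made of them. A smaller share of reads cannot be told apart from fewer cells that express the genes.

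The spread between libraries was only part of what set the SE of a difference, because limma also draws on the variances of other genes. *Canx* had a smaller SD than *Calr* but an SE of 0.048 against 0.047. The SD between libraries of a group was 0.066 for *Hspa5*, 0.052 for *Hsp90b1*, 0.077 for *Calr* and 0.044 for *Canx*, and it was 0.22 for *Ern1*, 0.24 for *Dnajb9* and 0.33 for *Eif2ak3* (log2 units, pooled over the groups). Counting of reads alone would give 0.014 for *Hspa5* and 0.14 for *Eif2ak3*. The observed SD was larger than the counting SD for all 10 genes, by a factor between 1.87 for *Canx* and 5.00 for *Calr*.

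**Figure D3:**
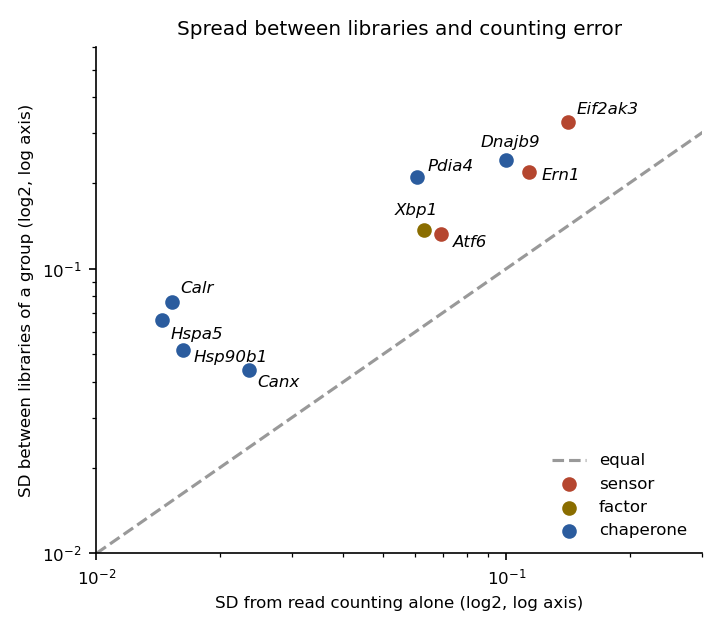
SD between libraries of a group (vertical axis) against the SD expected from read counting alone (horizontal axis), both in log2 units on log axes, 1 point per gene; the dashed line marks equality. All 10 genes lie above the line, the abundant chaperones at lower left and *Eif2ak3*, with an SD of 0.33, at upper right.

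How the members varied together was examined after removal of the group means. Of 45 pairs, 0 passed a permutation test of Pearson's r after adjustment over the pairs, and 4 were under 0.05 before adjustment. The highest correlations over the 12 libraries linked *Atf6* with *Pdia4* (r = 0.70, permutation p = 0.0197, adjusted p = 0.463; rho = 0.75, permutation p = 0.00979, adjusted p = 0.441) and *Atf6* with *Dnajb9* (r = 0.68, permutation p = 0.0231, adjusted p = 0.463; rho = 0.66, permutation p = 0.0293, adjusted p = 0.489). Without the 2 libraries farthest from the median of *Atf6*, r was 0.52 and 0.55. Within the odd-numbered libraries r was 0.52 and 0.92, and within the even-numbered ones 0.85 and 0.55. *Pdia4* and *Dnajb9* had r = 0.62 (permutation p = 0.0408, adjusted p = 0.463), with 0.20 in the odd-numbered and 0.79 in the even-numbered libraries. *Hspa5* and *Calr* had r = 0.63 (permutation p = 0.0412, adjusted p = 0.463) and rho = 0.55 (permutation p = 0.0806, adjusted p = 0.726), but r fell to 0.38 without the 2 libraries farthest from the median of *Hspa5*, and it was 0.98 in the odd-numbered and -0.36 in the even-numbered libraries. That relation did not hold in the even-numbered libraries.

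The genes with the profile most like that of *Hspa5* over the 12 libraries, after removal of group means, were not members. By Pearson's r they were *Cyp26b1* (0.94), *Myl6* (0.91), *Fnbp1* (0.89), *Prelid1* (0.88) and *P3h4* (0.88). *Calr* ranked 236 and *Hsp90b1* 964 by the same measure (r = 0.39 for the latter). These points share depth and scaling, and the 5 were the highest among 5393 genes, so no p is given.

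Beyond the members, the genes whose promoters held the full ERSE were looked up by sequence alone. Of 8529 genes of the table with a RefSeq promoter, 13 (0.152%) held it. Besides the 4 members they were *Pdia6*, *Syvn1*, *Dnajc3*, *Creld2*, *Pan2*, *Hnrnpa3*, *Adcy3*, *Spats2l* and *Alg12*. The list holds known ER folding and degradation genes: *Pdia6* encodes a disulfide isomerase, *Syvn1* the ubiquitin ligase of ER-associated degradation, *Dnajc3* a co-chaperone of BiP and *Creld2* a protein induced by ER stress. Of the 13, 12 had negative differences and 1 (*Hnrnpa3*, 0.077) a positive one, with a median of -0.078 against 0.0026 for all genes. Of the 9 that were not members, 8 were negative, but among these the SE exceeded the difference for all except *Pdia6* and *Syvn1*. *Pan2* (-0.16 ± 0.22, SE), *Adcy3* (-0.082 ± 0.23), *Spats2l* (-0.038 ± 0.26) and *Alg12* (-0.022 ± 0.28) had low levels, from 2.43 to 3.24 log2 CPM. The count of signs was not tested. None of the 13 passed in limma (0 at an adjusted p of 0.05, 2 at an unadjusted p under 0.05, both members, against 2.22% and 11.8% of all genes), and most were small: *Pdia6* had -0.098 (adjusted p = 0.521), *Syvn1* -0.19 (adjusted p = 0.530) and *Dnajc3* -0.061 (adjusted p = 0.813). This look-up was chosen after the members' values had been seen.

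The rest of the pathway was described with 8 lists that held 122 genes of the table. In limma, 1 of the 122 passed over all genes, towards higher values, and 11 were under 0.05 before adjustment, where the shares of all genes were 2.22% and 11.8%. Neither count was above those shares.

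In the arm below PERK, 1 of 12 genes passed, against 2.22% of all genes. In that arm 7 genes were higher and 5 lower, with a median of 0.033. The gene that passed was *Atf3*, a stress-induced transcription factor. Its values lay between 4.58 and 5.02 log2 CPM with DMSO and between 5.08 and 5.28 with thymol. The groups did not overlap, which was so for 1.68% of all genes. It rose by 0.42 ± 0.12 (SE, limma adjusted p = 0.0394), and the call was lost in 9 of the 12 fits that left out 1 library, in which the adjusted p reached 0.112 without DMSO replicate 1. It was kept only without DMSO replicate 3, DMSO replicate 6 or thymol replicate 4. Among the 16 signalling partners of the sensors 0 passed and the median was -0.026. The smallest p-values were those of *Ptpn1*, a phosphatase of the ER membrane (0.18, adjusted p = 0.116), and *Mbtps2*, a protease that cuts ATF6 (0.20, adjusted p = 0.722).

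Of 22 other chaperones and co-chaperones of the ER lumen 0 passed, 12 were higher and 10 lower, and the median was 0.0078. Before adjustment 4 were under 0.05, against 11.8% of all genes. Of these, 2 were higher and 2 lower, against 5.35% and 6.44% of all genes. *Sec63*, a co-chaperone of BiP at the translocation channel, had a difference of 0.17 (adjusted p = 0.117), and *Fkbp2*, a prolyl isomerase, one of 0.27 (adjusted p = 0.212). The 2 lower ones, named after their values were seen, were *Sdf2* (-0.15, adjusted p = 0.378) and *Dnajb11*, a co-chaperone of BiP (-0.14, adjusted p = 0.420), each below every DMSO library in 5 of 6 thymol libraries. Of 17 disulfide isomerases and enzymes of oxidative folding 0 passed, 12 were higher and 5 lower, with a median of 0.035. *Prdx4*, a peroxidase of the ER, had a difference of 0.30 (adjusted p = 0.152) and *Erp29*, a protein of the disulfide isomerase family, one of 0.16 (adjusted p = 0.214).

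Of 14 genes of the calnexin cycle and N-glycosylation 0 passed, and the median was 0.047. *Rpn1*, a subunit of the oligosaccharyltransferase, had a difference of 0.14 (adjusted p = 0.197). Its thymol values (8.50 to 8.67 log2 CPM) were all above its DMSO values (8.315 to 8.49). The groups were separate for 1.68% of all genes. *Stt3a*, a catalytic subunit of the same complex, had a difference of 0.12 (adjusted p = 0.541). Of 29 genes of ER-associated degradation 0 passed, 15 were higher and 14 lower, and the median was 0.0052. *Aup1* had the smallest p-value there (0.25, adjusted p = 0.152), followed by *H13*, which encodes the signal peptide peptidase (0.10, adjusted p = 0.445).

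The 3 KDEL receptors, which return escaped lumenal proteins such as BiP to the ER, had differences between 0.014 and 0.084, and 0 passed. The values were 0.084 for *Kdelr3* (adjusted p = 0.778) and 0.051 for *Kdelr2* (adjusted p = 0.828). Of 9 receptors of ER-phagy, the autophagy of the ER itself, 0 passed, with a median of 0.012. *Retreg3* had the lowest difference (-0.38, adjusted p = 0.508) at a low level of 3.33 log2 CPM, and *Sec62* had 0.067 (adjusted p = 0.753).

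**Figure D4:**
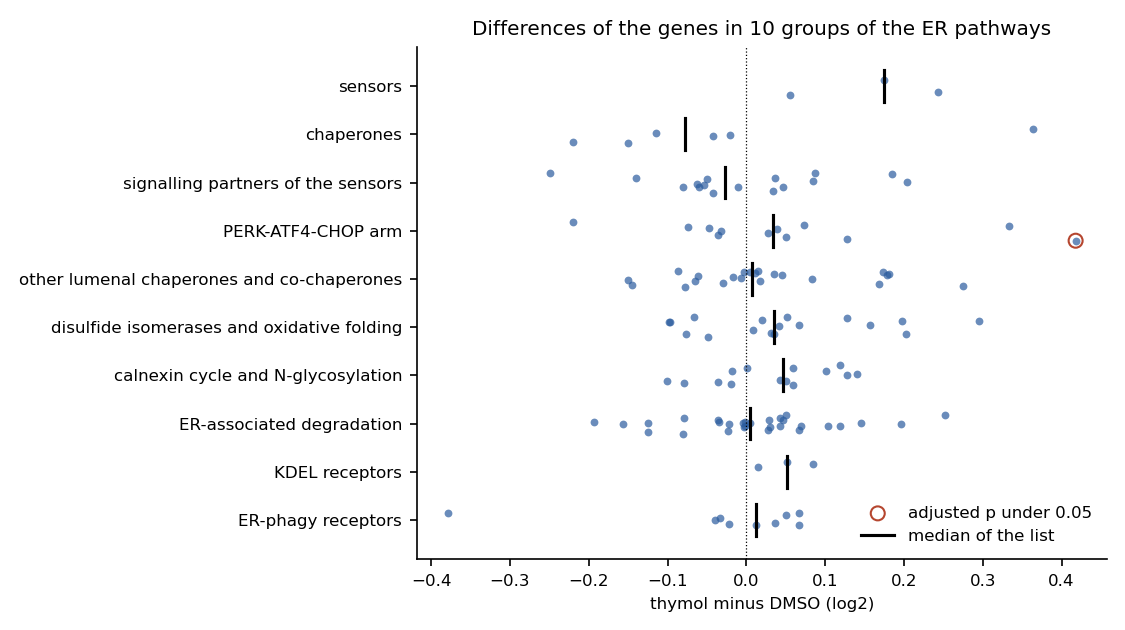
Thymol minus DMSO (log2, horizontal axis) for every measured gene of the sensors, the chaperones and 8 further lists of ER pathways (rows); each point is a gene, black bars are medians and a red ring marks an adjusted p under 0.05. The only ringed point is *Atf3* at 0.42, and the medians of the 8 further lists lie between -0.026 and 0.051.

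Leaving out libraries moved the members by different amounts. The difference of *Hspa5* stayed between -0.14 and -0.098 and that of *Hsp90b1* between -0.17 and -0.14 over the 12 fits that each left out 1 library. *Atf6* ranged from 0.20 to 0.28 and *Dnajb9* from 0.29 to 0.44. *Eif2ak3* ranged from 0.11 to 0.34 and *Ern1* from 0.011 to 0.12. In these 12 fits, no member changed sign and 0 passed.

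**Figure D5:**
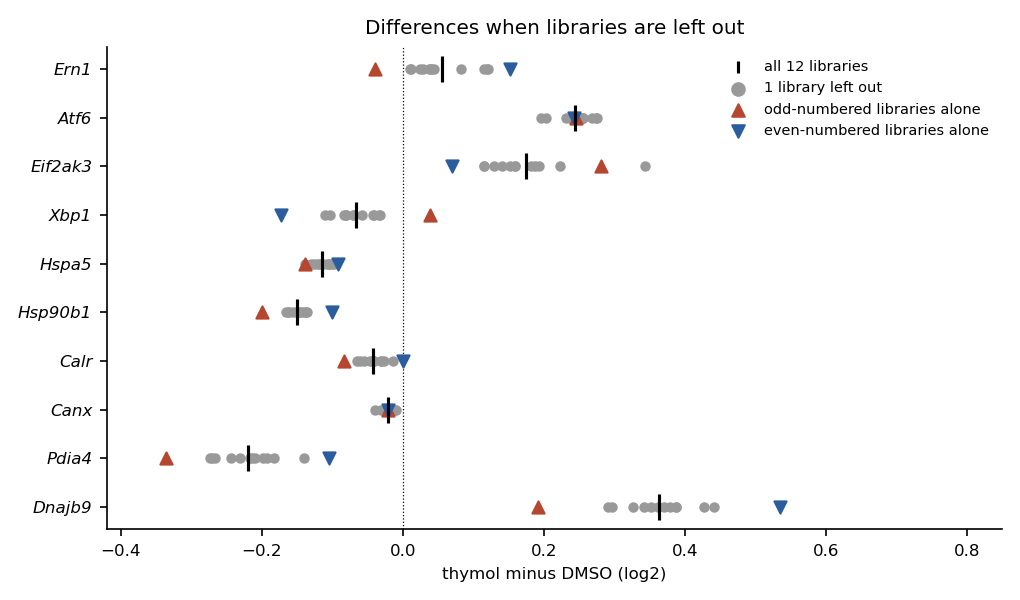
Thymol minus DMSO (log2, horizontal axis) for each gene with all 12 libraries (black bar), with 1 library left out (grey points), and in the 6 odd-numbered (red) or 6 even-numbered (blue) libraries alone. *Atf6* and *Canx* give nearly the same value in the odd-numbered and the even-numbered libraries, whereas *Dnajb9* (0.19 and 0.54) and *Pdia4* (-0.34 and -0.10) do not, and *Ern1* and *Xbp1* change sign.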

How the data were processed

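Per the labels and the study's methods, the authors prepared 3′ mRNA libraries with the QuantSeq FWD kit, aligned the reads to GRCm38 with STAR 2.5.3, counted them per gene with HTSeq 0.6.1, dropped unannotated genes and those with few reads, and applied TMM scaling. The deposited values are log2 CPM with a prior count. Whole reads were recovered from the equal steps of the values (100% of the values under 200 reads within 0.02 of a whole number), and the prior was 1.96 reads in a library of average size. PCR reads are not independent molecules, so depth speaks of counting error only.

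The log2 values of all 10697 genes and 12 libraries were fitted with limma 3.58.1 in R 4.3.3 (trend in eBayes, no covariate), with two-sided p-values, Benjamini-Hochberg adjustment across the whole table and a threshold of 0.05. Differences are thymol minus DMSO. A count model was not the main test, since the deposited unit is log2, and limma's voom was run on recovered reads as an alternative. The others were the replicate number as a block, a term for odd against even numbers, the odd or the even libraries alone, no trend, robust variances, 10 added before the logarithm, a minimum mean of 5 log2 CPM, median centring, quantile normalization and leaving out each library. Correlations used 100000 resamples within groups and 45 pairs. The fit was tested on simulated data whose differences were all larger than those of the members. That test does not cover differences of the members' size, and its outcome is not given here.

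Named genes were the 10 members, the genes past the threshold in each of 8 lists (or, where none passed, the 2 with the smallest p) and the 5 genes most like *Hspa5* among those with a mean of at least 5 log2 CPM. The members and lists were chosen with earlier results of these data known, and the ERSE look-up was added after the members' values were seen. Coordinates are those of GENCODE vM21 and promoters those of RefSeq (GRCm38.p6).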

Additional observations from a re-analysis of the deposited data

Results flagged for a closer look

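Members, named list genes and read totals were screened for single libraries far from the other 5 of their group with Dixon's gap-to-range ratio and its 95% limit. The screen covered 52 sets of 6 values and marked 3, where chance marks about 1 in 20, here 2.6. *Eif2ak3* reached 4.76 log2 CPM in DMSO replicate 4, against 3.98 in the next DMSO library. *Rpn1* was at 8.315 log2 CPM in DMSO replicate 4, against 8.43 in the next lowest DMSO library. The read total was highest in thymol replicate 5 (9049796 recovered reads), with thymol replicate 1 next (6585162).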

How the results depend on the processing

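In the 23 alternatives tried, the number of members past the threshold was 1 instead of 0 with the replicate block, with a term for odd against even numbers, with robust variances, with a minimum mean of 5 log2 CPM (which leaves out *Ern1*, *Eif2ak3* and *Dnajb9*), with median centring, with quantile normalization and with voom, and each time the member was *Hsp90b1*. It was 0 in the other 16. The number of all genes past it was 238, with 57 without the mean-variance trend, 70 in the odd-numbered libraries alone, 332 with the replicate block, and 172 to 270 with 1 library left out. The sign changed in the odd-numbered libraries alone for *Ern1* (-0.040), *Xbp1* (0.038) and *Sec62* (-0.033), and in the even-numbered ones for *Kdelr3* (-0.014), and the causes were not tested. With 1 library left out, the median of the sensors ran from 0.11 to 0.26 and that of the chaperones from -0.10 to -0.057. Among the pairs of members, 0 passed also with odd and even libraries centred separately. Of the named list genes, *Atf3* lost its call in the odd-numbered (0.47) and the even-numbered libraries alone (0.36) and without the trend, *Sec63* gained one with the replicate block, and *Aup1* gained one in the even-numbered libraries and without DMSO replicate 1. The replicate numbers, used in the block, are not known to pair libraries: the deviations of same-numbered libraries correlated with r from -0.051 to 0.27, and 1 of 6 DMSO libraries correlated best with the thymol library of its own number. *Eif2ak3* and *Ern1* had the fewest reads, with means of 109 and 166 to 173 per library, and their SDs between libraries were 2.31 and 1.92 times those of counting alone.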
